A study of Rattus norvegicus with 40 samples.

Results

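Myh7 and Atp2a2, a pair of genes of the slow contractile programme, were followed in 2 skeletal muscles of male Wistar rats at 2 ages. Myh7 was read as gene ENSRNOG00000016983 and Atp2a2 as gene ENSRNOG00000001285, which makes 2 of the 32545 genes in the deposited table. They were chosen by name as slow fibre genes and not by a rule on measured values, though earlier results of these data were known. Wistar is an outbred laboratory strain, and the labels give no treatment or genetic change. Gastrocnemius, a calf muscle, and triceps, a muscle of the fore limb, were taken from the same animals, 10 of them 20 months old and 10 others 22 months old. That gave 40 libraries in 4 groups of 10, made from polyadenylated RNA with a miRNeasy extraction and a TruSeq RNA v2 kit. In the study, 20 months stands for the early sarcopenic and 22 months for the sarcopenic phase, sarcopenia being the loss of muscle mass and function with age. The comparisons here ask whether the slow genes differed with age, between the muscles, and from animal to animal.

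Limb muscle is a mosaic of slow and fast fibres. Myh7 encodes the slow, or beta, myosin heavy chain, the motor protein of type I fibres that is also the main myosin of the heart ventricle. Atp2a2 encodes SERCA2, the pump that returns calcium to the sarcoplasmic reticulum, which slow fibres and heart use where fast fibres use another pump, and which many other cell types make in a different isoform. In whole muscle, a lower level can mean fewer slow fibres in the piece that was taken or less RNA per fibre, and the counts cannot tell these apart.

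The names of both genes come from the choice of the pair. No table used here pairs rat Ensembl identifiers with symbols, so the names, the tissue labels and other fibre type genes could not be checked against markers. Gene length was not paired with the identifiers either. Ratios and lines of Myh7 and Atp2a2 are therefore read from library to library, and not as the amount of a gene relative to the other. Myh6, the alpha myosin of the heart, lies next to Myh7 and resembles it closely in sequence. The sources used here do not say how reads shared between them were counted.

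Windows at the annotated starts of the pair are shown because they differ in base composition. The levels of the genes, given further on, went up and down together. Each window is from RefSeq on build GRCr8 and is read 5′ to 3′ on the gene's own strand. It runs from 250 bases before to 50 bases after the annotated start of the gene. Right before that start the Myh7 letters read ctcctttccccag, which resembles the end of an intron. Shortly after it comes an ATG with no stop codon in frame behind it. Where transcription begins was not checked, so the Myh7 window may lie inside the gene and not at its promoter. The Myh7 window lies at chr15:32438145-32438444 on the minus strand and the Atp2a2 window at chr12:39733269-39733568 on the plus strand. Capitals mark matches to CANNTG, the letters of an E-box, and to GGGCGG, the letters of a GC box, read on both strands.
Myh7: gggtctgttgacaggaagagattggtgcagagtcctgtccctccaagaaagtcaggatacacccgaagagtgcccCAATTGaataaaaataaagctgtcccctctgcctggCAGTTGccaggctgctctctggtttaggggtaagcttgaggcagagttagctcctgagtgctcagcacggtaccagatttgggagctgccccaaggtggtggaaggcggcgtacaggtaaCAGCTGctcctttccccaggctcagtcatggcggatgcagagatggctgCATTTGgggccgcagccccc
Atp2a2: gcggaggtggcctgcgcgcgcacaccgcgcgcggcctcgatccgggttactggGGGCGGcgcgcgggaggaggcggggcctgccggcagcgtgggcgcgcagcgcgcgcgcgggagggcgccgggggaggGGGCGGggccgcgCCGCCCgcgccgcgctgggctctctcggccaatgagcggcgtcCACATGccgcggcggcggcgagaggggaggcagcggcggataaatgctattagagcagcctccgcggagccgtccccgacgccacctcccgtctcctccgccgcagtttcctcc

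The Myh7 window was 56.7% G and C with 6 CpG pairs, close to the medians of 51.7% and 7 over 33465 rat promoters of the same length. The Atp2a2 window was 79.0% G and C, higher than in 98.8% of those promoters, and held 52 CpG pairs, more than in 99.5% of them. CANNTG matched 4 times in Myh7 and 1 time in Atp2a2, and 72.1% of all promoters held a match. GGGCGG matched 3 times in Atp2a2 and 0 times in Myh7, against 33.1% of all promoters with a match. Neither window held CATTCC (in 14.2% of promoters), AGGTCA (in 16.2%), TATAAA (in 14.2%) or the MEF2 motif (in 3.29%). A match is a description of letters, and no binding was measured in this study. The CATTTG match of Myh7, at position 30 from the annotated start, lies behind the ATG, within its frame. The Myh7 values describe this window alone, and do not show which letters a promoter of Myh7 holds or lacks.

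Library totals ranged from 10983887 to 68580194 counts. Within a group there was no sign that any library had been deposited more than once, and libraries of different groups were not compared for this. Levels are given in CPM, the usual per-library share scale of RNA sequencing, in which a gene's counts are set against the total of its library after the libraries were scaled against each other with TMM, a trimmed mean of M values. The lowest level of the pair, Myh7 at 0.851 CPM in triceps replicate 4 of 20 months, rested on 48 counts in the deepest library. Its exact binomial 95% interval was 0.627 to 1.13 CPM. All other values of Myh7 and Atp2a2 rested on 19 counts or more. For these genes, counting error was therefore small beside the differences between animals described next, and this interval covers counting error alone.

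Myh7 was abundant in gastrocnemius and ranged from high to almost nothing in triceps. In gastrocnemius at 20 months its lowest, median and highest levels were 316, 2279 and 6194 CPM, with a mean of 2724 ± 2088 CPM (SD, n = 10). In gastrocnemius at 22 months they were 502, 2681 and 4743 CPM, with a mean of 2576 ± 1527 CPM (SD, n = 10). The ranges of the ages overlapped almost fully. At 20 months, replicates 8, 9 and 10 lay apart at 316, 466 and 423 CPM while the other 7 animals were at 2069 CPM or more, a gap of 4.44-fold. At 22 months the levels ran without such a gap.

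In triceps at 20 months the lowest, median and highest levels of Myh7 were 0.851, 29.3 and 3994 CPM, with a mean of 903 ± 1556.5 CPM (SD, n = 10). Replicates 1, 6, 7 and 10 stood at 971, 397, 3994 and 3592 CPM, and the remaining 6 animals were at 41.2 CPM or less, 9.63-fold below the lowest of the 4. The highest and the lowest animal of this group thus differed 4694-fold. In triceps at 22 months the lowest, median and highest levels were 1.25, 59.2 and 1723 CPM, with a mean of 276 ± 537 CPM (SD, n = 10). Replicate 10 of 22 months, at 1723 CPM, stood above replicate 7 at 556 CPM and replicate 8 at 245 CPM, while 3 animals were below 5 CPM, namely replicates 2, 5 and 9. Myh7 took up to 0.649% of all counts in a gastrocnemius library and as little as 7.00e-05% in a triceps library.

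Atp2a2 followed the same order of muscles within a narrower range. In gastrocnemius its lowest, median and highest levels were 239, 1012 and 1591 CPM at 20 months (mean 965 ± 559 CPM, SD, n = 10) and 318, 1037 and 1561 CPM at 22 months (mean 902 ± 434 CPM, SD, n = 10). In triceps they were 67.6, 93.0 and 1723 CPM at 20 months (mean 446 ± 633 CPM, SD, n = 10) and 66.8, 116 and 711 CPM at 22 months (mean 186 ± 198 CPM, SD, n = 10). No library fell below 66.8 CPM, whereas Myh7 was below 10 CPM in 8 triceps libraries. The 3 gastrocnemius animals that were lowest in Myh7 at 20 months were also the lowest in Atp2a2, at 239, 288 and 257 CPM. Replicates 7 and 10 of triceps at 20 months were the highest for Atp2a2, at 1723 and 1505 CPM, as they were for Myh7.

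**Figure D1:**
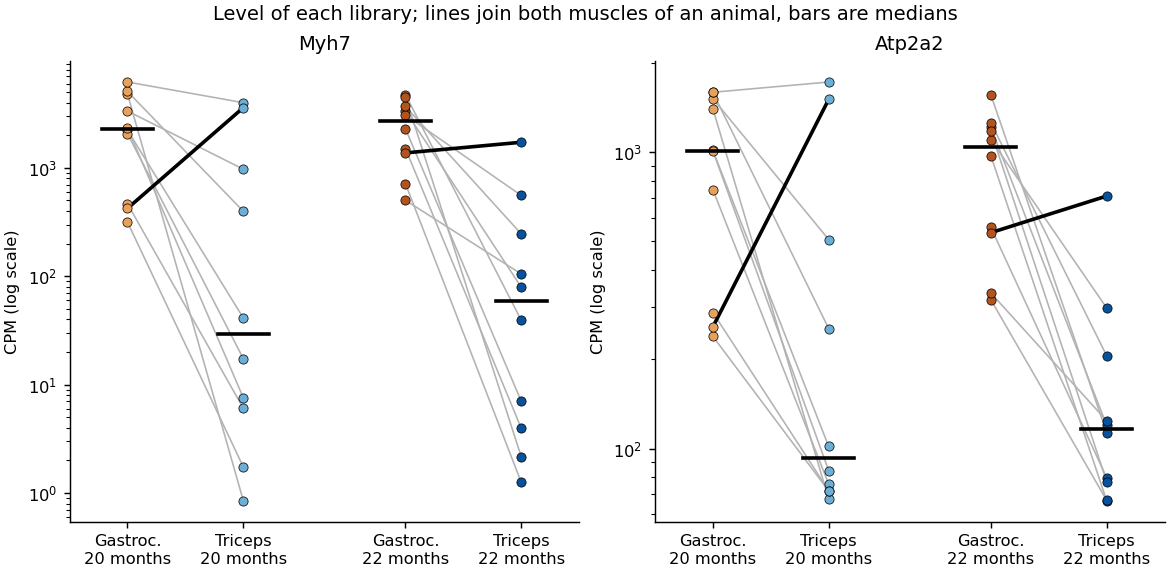
Level of Myh7 (left) and Atp2a2 (right) in each of the 40 libraries, in CPM on a log axis, with lines joining both muscles of an animal, the black line marking replicate 10 of each age, and bars at the median of 10 animals. Nearly all lines fall from gastrocnemius to triceps, and the lines of replicate 10 rise at both ages, from 423 to 3592 CPM of Myh7 at 20 months and from 1374 to 1723 CPM at 22 months.

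To ask whether the slow genes changed between 20 and 22 months, the ages were compared within each muscle over all expressed genes. No difference of either gene with age exceeded the spread between animals. In gastrocnemius the log2 fold change, 22 minus 20 months, was -0.08 ± 0.51 (SE) for Myh7, with a 95% interval of -1.13 to 0.98 and an adjusted p of 0.961 (edgeR quasi-likelihood test). For Atp2a2 it was -0.09 ± 0.38 (SE), with an interval of -0.88 to 0.70 and an adjusted p of 0.936. The Myh7 interval thus left room for a log2 change of about 1 either way, and that of Atp2a2 for somewhat less. edgeR called 0 of 12659 genes in this comparison, 0% of those tested, while 1308 had an unadjusted p under 0.05. DESeq2 called 1 gene and limma-voom 0 genes, and neither of the slow genes was called by them. The sign of these differences depended on the scaling, since scaling by library totals alone gave 0.061 for Myh7 and 0.044 for Atp2a2.

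In triceps the log2 fold change with age was -1.72 ± 1.34 (SE) for Myh7, with a 95% interval of -4.50 to 1.05 and an adjusted p of 0.746 by edgeR. For Atp2a2 it was -1.27 ± 0.66 (SE), with an interval of -2.64 to 0.10, an unadjusted p of 0.0678 and an adjusted p of 0.596. The standard error of Myh7 was the largest among the 12345 genes tested, of which edgeR called 0, or 0%, with 1084 at an unadjusted p under 0.05. DESeq2 and limma-voom called 0 genes each. The mean and the median of triceps pointed in opposite directions for both genes. Mean Myh7 was 903 CPM at 20 months and 276 CPM at 22 months, while its medians were 29.3 and 59.2 CPM. Mean Atp2a2 was 446 and 186 CPM, and its medians were 93.0 and 116 CPM. The means followed replicates 7 and 10 of 20 months and replicate 10 of 22 months. Without replicate 7 of 20 months the difference was -1.02 for Myh7 and -0.71 for Atp2a2, and without replicate 10 of that age it was -1.15 and -0.84. Without replicate 10 of 22 months it was -2.98 for Myh7 and -1.81 for Atp2a2, with edgeR adjusted p of 0.595 and 0.528 (unadjusted 0.0444 and 0.0107). The fall was also smaller where log values were averaged, at -0.56 for Myh7 and -0.53 for Atp2a2 by limma-voom, and at -0.56 and -0.52 as the difference of mean log2 CPM.

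Whether age moved the genes differently in the hind and the fore limb was tested as the difference of the age effects, gastrocnemius minus triceps. The main fit treated both muscles of an animal as independent. In it the difference was 1.63 ± 1.50 on the log2 scale (SE) for Myh7, with a 95% interval of -1.39 to 4.65. For Atp2a2 it was 1.16 ± 0.80 (SE), with an interval of -0.45 to 2.77. The adjusted p was 0.999 for both by edgeR, which called 0 of 12980 genes, 0%, with 389 at an unadjusted p under 0.05. DESeq2 and limma-voom called 0 genes each. The values shrank with the animal as a block, to 0.58 for Myh7 and 0.44 for Atp2a2, and by limma-voom, to 0.76 and 0.57. Without replicate 10 of 22 months they were 2.98 and 1.78 (edgeR adjusted p 0.9996), and without replicate 10 of 20 months 0.95 and 0.63.

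The muscles were compared within each age, in a main fit that treated both muscles of an animal as independent. At 22 months Atp2a2 was 4.88-fold higher in gastrocnemius, a log2 difference of 2.29 ± 0.43 (SE) with a 95% interval of 1.39 to 3.19, and it passed the threshold of 0.01 with an adjusted p of 0.000366 by edgeR. In 9 of 10 animals the gastrocnemius library had more of it, and 1 triceps library, replicate 10 at 711 CPM, lay above the lowest gastrocnemius library at 318 CPM. Myh7 was 9.41-fold higher in gastrocnemius at 22 months, a log2 difference of 3.23 ± 0.98 (SE) with an interval of 1.21 to 5.26, and its adjusted p of 0.0141 by edgeR did not pass 0.01. Myh7, too, was higher in 9 of 10 animals. edgeR called 20.3% of the 12565 genes tested between the muscles at this age, so a call here was not rare.

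The call of Myh7 at 22 months turned on the tool, the scaling, the pairing and a single animal. Its adjusted p was 0.00161 by the DESeq2 Wald test, 0.00262 by limma-voom and 0.00881 by edgeR with library totals alone, all past the threshold. With the animal as a block, which sets both muscles of an animal against each other, its log2 difference was 5.83 and its adjusted p was 0.00188 by edgeR, past the threshold. Without replicate 10 of that age, the animal with more Myh7 in triceps than in gastrocnemius, edgeR gave a log2 difference of 4.57 and an adjusted p of 0.00146.

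At 20 months neither gene passed the threshold between the muscles. The log2 difference, gastrocnemius minus triceps, was 1.60 ± 1.13 (SE) for Myh7, with a 95% interval of -0.75 to 3.94 and an edgeR adjusted p of 0.406. For Atp2a2 it was 1.12 ± 0.65 (SE), with an interval of -0.23 to 2.46 and an adjusted p of 0.298. edgeR called 3.76% of 12426 genes in this comparison. Yet Myh7 was higher in gastrocnemius in 9 of 10 animals and Atp2a2 in 8 of 10. The fitted difference follows the mean counts of a group, which in triceps came largely from replicates 7 and 10. On the log2 CPM of the single animals the mean difference of Myh7 was 4.99 (exact sign-flip test of this gene alone, two-sided, p = 0.00977) and that of Atp2a2 was 1.99 (exact p = 0.0215). With the animal as a block, edgeR gave 5.26 for Myh7 with an adjusted p of 0.0305 and 2.18 for Atp2a2 with an adjusted p of 0.0281, both above 0.01. limma-voom gave 4.95 and 1.97, with adjusted p of 0.0730 and 0.0735.

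**Figure D2:**
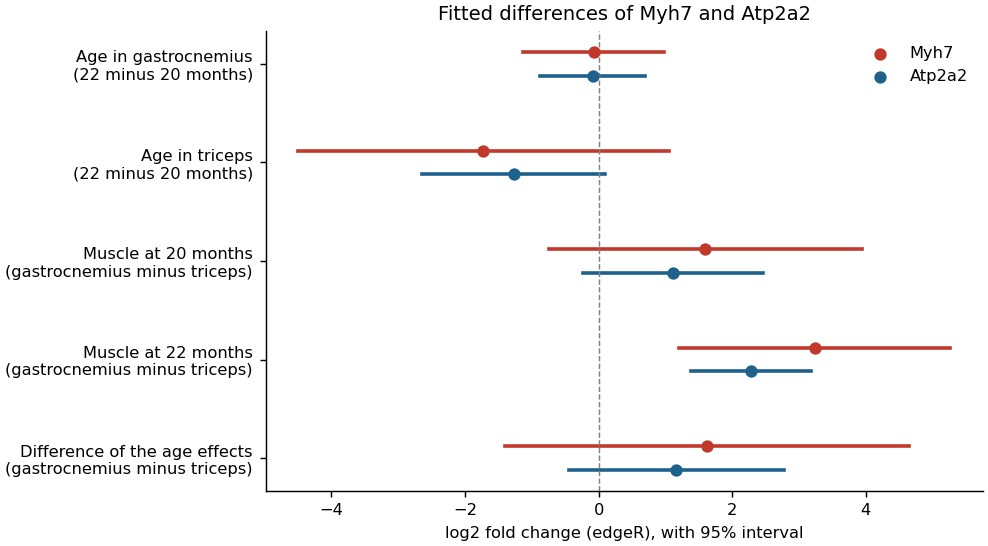
Fitted log2 fold changes of Myh7 (red) and Atp2a2 (blue) by edgeR in 5 comparisons, as points with 95% intervals, without the animal as a block. The intervals of both genes cross 0 in the age comparisons and at 20 months, and lie above 0 between the muscles at 22 months, from 1.21 to 5.26 for Myh7 and from 1.39 to 3.19 for Atp2a2.

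The same animal could be high in a muscle and low in the other. The ratio of gastrocnemius to triceps within an animal ranged from 0.118 to 5637 for Myh7 at 20 months, with a median of 65.5, and from 0.798 to 2100 at 22 months, with a median of 81.7. For Atp2a2 it ranged from 0.171 to 20.7 with a median of 5.12 at 20 months, and from 0.753 to 15.2 with a median of 6.55 at 22 months. Replicate 4 of 20 months had the widest contrast, with 4797 CPM of Myh7 in gastrocnemius and 0.851 CPM in triceps. Replicate 10 of 20 months was the reverse, with 423 CPM of Myh7 in gastrocnemius and 3592 CPM in triceps, and with 257 and 1505 CPM of Atp2a2. Replicate 10 of 22 months had 1374 and 1723 CPM of Myh7 and 535 and 711 CPM of Atp2a2. In replicate 7 of 20 months Atp2a2 alone was higher in triceps, at 1723 against 1591 CPM.

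These libraries were set beside gene ENSRNOG00000026087, which an earlier pass over the same libraries and labels had found far higher in gastrocnemius. It is therefore a description and no independent check of the labels. In replicate 10 of 20 months this gene stood at 49.5 CPM in the gastrocnemius and 0.293 CPM in the triceps library. In replicate 10 of 22 months it stood at 309 and 1.35 CPM, and in replicate 7 of 20 months at 96.1 and 2.48 CPM. Within each of these 3 animals it was higher in the library labelled gastrocnemius. Its ranges met, however, since the lowest gastrocnemius library, replicate 1 of 20 months, had 2.36 CPM and the highest triceps library, replicate 7 of 20 months, had 2.48 CPM.

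Whether animals high in gastrocnemius were also high in triceps was tested, and no relation passed. For Myh7, Pearson's r of log2 CPM between the muscles was 0.235 at 20 months (Spearman's rho 0.333, permutation p = 0.501 and 0.348) and 0.0826 at 22 months (rho -0.0424, permutation p = 0.816 and 0.919), with 10 animals each. For Atp2a2 it was 0.143 at 20 months (rho 0.455, permutation p = 0.669 and 0.191) and 0.0420 at 22 months (rho 0.115, permutation p = 0.914 and 0.759). Adjusted over the 4 relations, the p of r was 0.914 for each, and that of rho was 0.696 at 20 months and 0.919 at 22 months. When the 2 animals with the gastrocnemius level most unlike the median were left out, r was 0.463 and -0.180 for Myh7 and 0.564 and -0.326 for Atp2a2, at 20 and 22 months. With 10 animals the intervals were wide, from -0.463 to 0.753 for Myh7 at 20 months.

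Few genes varied as much between animals as Myh7. The standard deviation (SD) of its log2 CPM over 10 animals was 1.60 in gastrocnemius and 4.47 in triceps at 20 months, and 1.12 and 3.53 at 22 months. The median over 12980 genes was between 0.24 and 0.27 in the 4 groups. Ranked by this SD, Myh7 was gene 1 of 12980 in triceps at 20 months and gene 2 at 22 months, and gene 44 and 129 in gastrocnemius. Atp2a2 had an SD of 1.13 in gastrocnemius and 1.86 in triceps at 20 months, and of 0.83 and 1.10 at 22 months, which made it gene 202, 43, 375 and 175. On the scale of CPM, the coefficient of variation of Myh7 was 76.7% and 172% at 20 months and 59.3% and 194% at 22 months, in gastrocnemius and triceps. Atp2a2 had 57.9% and 142% at 20 months and 48.1% and 106% at 22 months, where the median gene had between 17.0% and 18.6%.

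**Figure D3:**
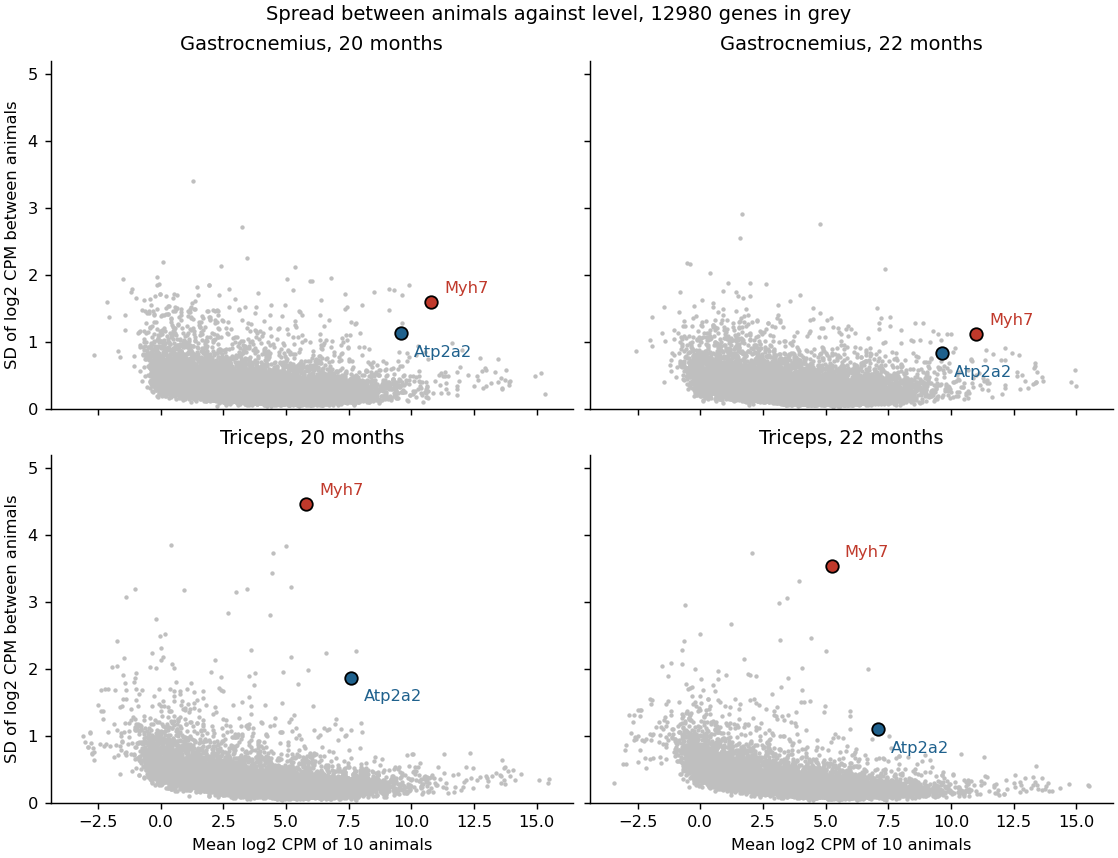
SD of log2 CPM between 10 animals against the mean log2 CPM, in 4 panels by muscle and age, with 12980 genes in grey, Myh7 in red and Atp2a2 in blue. Myh7 lies at the top of the triceps panels, at 4.47 and 3.53, and both genes lie above most genes of like level in every panel.

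The spread of Myh7 was larger in triceps than in gastrocnemius of the same animals. For the test, the values of each muscle were first centred on their own median. Exact here means that all swaps were counted, and with centres estimated from the same values the p is approximate. The SD of log2 CPM was lower in gastrocnemius by a difference of -2.87 at 20 months (two-sided exact permutation test swapping the muscles within animals, p = 0.00781, adjusted over 4 tests 0.0273) and of -2.41 at 22 months (exact p = 0.0137, adjusted 0.0273). Leaving out any animal kept the differences between -3.05 and -2.59 at 20 months and between -2.79 and -1.97 at 22 months. The adjusted exact p, with 9 animals, was then between 0.0625 and 0.109 without replicate 1, 2, 6, 7 or 10 at 20 months, and between 0.0547 and 0.0938 without replicate 2, 3, 5, 7, 8 or 9 at 22 months. For Atp2a2 the differences were -0.73 at 20 months (exact p = 0.287, adjusted 0.383) and -0.26 at 22 months (exact p = 0.658, adjusted 0.658), within what the swaps gave. Measured as the coefficient of variation instead, the Atp2a2 differences were -83.8 and -58.3 percentage points and did pass 0.05 (exact permutation tests, adjusted p of 0.0312 and 0.0469).

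The spread did not differ between the ages by more than regrouping the animals gave. The SD of log2 CPM, 22 minus 20 months, differed by -0.48 for Myh7 and -0.30 for Atp2a2 in gastrocnemius (permutation p = 0.168 and 0.184), and by -0.94 and -0.77 in triceps (permutation p = 0.329 and 0.294). Adjusted over the 4 tests the p was 0.329 for each. All 4 SDs were lower at 22 months, though the coefficient of variation of Myh7 in triceps was 22.0 percentage points higher.

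Within every group both genes went up and down together. Pearson's r of log2 CPM between Myh7 and Atp2a2 over 10 animals was 0.988 in gastrocnemius at 20 months (rho 0.976), 0.978 in gastrocnemius at 22 months (rho 0.952), 0.943 in triceps at 20 months (rho 0.988) and 0.918 in triceps at 22 months (rho 0.927). The permutation p of r was 1e-05 in the first of these groups, the smallest that the resamples could give, and 6e-05, 2e-05 and 2e-05 in the others, with adjusted values of 2.67e-05 to 6e-05 over the 4 relations. Without the 2 animals farthest from the median of Myh7, r was 0.973, 0.962, 0.922 and 0.924. Where animals fell apart on Myh7, r was also taken within the larger set. These sets were cut at a gap seen in Myh7 itself, so their unadjusted p is a description and no separate support. Among the 7 gastrocnemius animals of 20 months above the gap, r was 0.890 (exact permutation p = 0.0123, rho 0.929), and among the 6 triceps animals of 20 months below the gap it was 0.829 (exact permutation p = 0.0292, rho 0.943). Both genes of a library share its depth and its piece of tissue.

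The genes did not move in proportion, however. Atp2a2 levelled off where Myh7 went on falling, as in triceps replicates 4, 8 and 9 of 20 months, in which Myh7 was 0.851, 1.74 and 6.05 CPM and Atp2a2 was 67.6, 72.0 and 72.1 CPM. The ratio of Myh7 to Atp2a2 counts within a library, which does not depend on library scaling, ranged from 1.32 to 3.89 in gastrocnemius at 20 months (median 2.26) and from 1.50 to 3.84 at 22 months (median 2.73). In triceps it ranged from 0.0126 to 2.39 at 20 months (median 0.317) and from 0.0187 to 2.42 at 22 months (median 0.504). The triceps animals with the most Myh7 thus had ratios within the gastrocnemius range.

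The mean log2 ratio was 1.22 ± 0.51 in gastrocnemius and -1.81 ± 2.82 in triceps at 20 months (SD, n = 10 each), and 1.38 ± 0.35 and -1.84 ± 2.59 at 22 months (SD, n = 10 each). It was higher in gastrocnemius by 3.03 at 20 months (exact sign-flip test, two-sided, p = 0.00586, adjusted over 4 tests 0.0117) and by 3.23 at 22 months (exact p = 0.00195, the smallest that 10 animals can give, adjusted 0.00781). Between the ages it differed by 0.17 in gastrocnemius (permutation p = 0.409, adjusted 0.545) and by -0.03 in triceps (permutation p = 0.978, adjusted 0.978). With the median of the paired differences in place of their mean, the muscle differences were 3.02 and 2.60 and the adjusted exact p was 0.0625 for both.

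A straight line of Atp2a2 on Myh7, both in CPM, was drawn for each group after the values had been seen and is given without a test. In triceps it met the axis at 79.4 CPM of Atp2a2 at 20 months and at 84.6 CPM at 22 months, and it rose by 40.6 and 36.8 CPM of Atp2a2 per 100 CPM of Myh7. In gastrocnemius it met the axis at 279 and 197 CPM and rose by 25.2 and 27.4 CPM. Leaving out any single animal kept the triceps intercepts between 75.9 and 81.4 CPM at 20 months and between 80.1 and 87.6 CPM at 22 months. The 8 triceps libraries with less than 10 CPM of Myh7 had between 66.8 and 84.3 CPM of Atp2a2. Which cells or isoform it came from was not measured, because the table holds 1 value per gene.

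**Figure D4:**
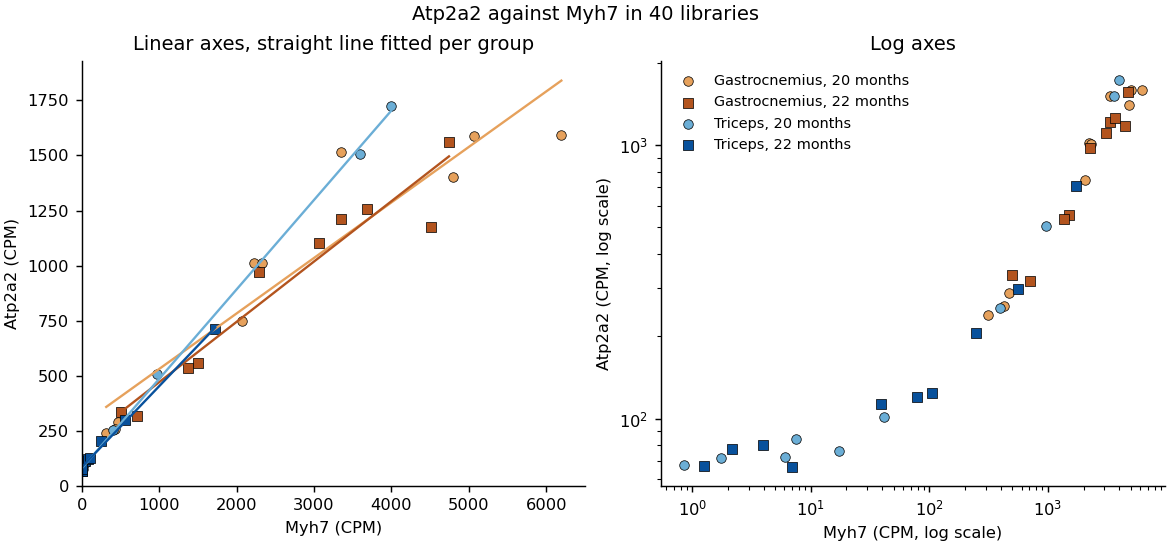
Atp2a2 against Myh7 in the 40 libraries, both in CPM, on linear axes with a straight line fitted per group (left) and on log axes (right), with colours for muscle and age and squares for 22 months. On the linear axes the triceps lines start at 79.4 and 84.6 CPM of Atp2a2, and on the log axes Atp2a2 stays between 66.8 and 113 CPM in the libraries with 41.2 CPM of Myh7 or less.

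Other genes shared the pattern. Over all 40 libraries, with log2 CPM centred within the 4 groups, Myh7 and Atp2a2 had an r of 0.908. Of the 12980 genes compared, 6 were more like Myh7 than Atp2a2 was, and 20 were more like Atp2a2 than Myh7 was. An r over 0.8 was reached by 18 genes for Myh7 and by 66 genes for Atp2a2. The genes most like the pair by the mean of both r values were ENSRNOG00000018943 (0.984 with Myh7 and 0.928 with Atp2a2) and ENSRNOG00000009073 (0.959 and 0.952). ENSRNOG00000018943 ranged from 79.9 to 1878 CPM in gastrocnemius and from 0.527 to 987 CPM in triceps, so it too was nearly absent from some triceps libraries. ENSRNOG00000009073 ranged from 106 to 2423 CPM in gastrocnemius and from 1.65 to 1161 CPM in triceps.

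Moving the opposite way were ENSRNOG00000003245 (-0.687 with Myh7 and -0.827 with Atp2a2) and ENSRNOG00000007738 (-0.675 and -0.759). These genes varied far less, from 189 to 409 CPM in gastrocnemius and from 200.2 to 575 CPM in triceps for ENSRNOG00000003245, and from 30.9 to 44.2 and from 34.2 to 53.2 CPM for ENSRNOG00000007738. These correlations describe 40 libraries, 2 from each animal, and carry no test. The identifiers were not paired with names, so nothing is said of what these genes do.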

How the data were processed

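RNA from gastrocnemius and triceps of 20 male Wistar rats was sequenced, and samples were grouped by muscle and age from the labels. The authors deposited 1 table of raw read counts per Ensembl gene for 40 libraries. The submitters' processing notes name CASAVA 1.8, STAR 2.3.0e, HTSeq and build Rnor_6.0, without roles. The study's methods describe kallisto for its own values and an unstranded protocol, so reads of an overlapping antisense gene could not be told apart. All 40 columns were mapped and 0 were left over. Of 32545 rows, 9545 had no count and 0 named no gene. Of the 47357 genes in the reference gene table, 0 carried an Ensembl identifier, so the planned fibre and cell type lists were not analysed here.

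The members, lists and tests were chosen with earlier results of these data known. The genes named besides Myh7 and Atp2a2 were, by rule, the 2 most and the 2 least like the pair, and ENSRNOG00000026087 for the label check. The count tests were run with edgeR 4.0.16 under R 4.3.3. Genes reaching 1 CPM in at least 10 libraries of the comparison were retained, scaled by TMM and tested with the quasi-likelihood F-test, two-sided, with Benjamini-Hochberg adjustment over all genes tested and a threshold of 0.01. Each comparison used its 20 libraries, and the difference of age effects all 40. The main fits held no term for the animal. Log2 CPM had a prior count of 2. Permutation tests of 100000 resamples, or exact where so named, used a threshold of 0.05, or 0.01 for the log2 CPM of a gene alone. Tests of spread first centred each group on its median, or divided it by its mean for the coefficient of variation. The edgeR test and the permutation test of a difference of means were tested on simulated data. The other permutation tests, among them the exact ones and those of spread and correlation, were not. DESeq2 1.42.0 and limma 3.58.1 (voom), other scalings and filters, an animal block and leaving out each animal were alternatives. The test of log2 CPM of a gene alone was an addition made once the data had been seen. So were the correlations within the sets above or below a gap in Myh7. The animal number in the labels is shared by both muscles and pairs them. Over 12980 genes the paired deviations had a median r of 0.158, with a range from -0.326 to 0.632, and r was over 0.1 in 12 of 20 animals. Muscles of different animals were not set against each other, so these values do not check the pairing.

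Libraries of a group differed by a chi-square of at least 11.4 per gene, more than sampling noise. The labels give no batch or date, so batches could not be examined.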

Additional observations from a re-analysis of the deposited data

Results flagged for a closer look

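In triceps at 22 months, replicate 10 stood far above the other 9 animals for both genes, with Myh7 at 1723 CPM where the next animal was at 556 CPM, and Atp2a2 at 711 CPM where the next was at 298 CPM. The gap was 0.678 of the range of the group for Myh7 and 0.641 for Atp2a2, above the 95% limit of Dixon's test for 10 values. Over 12 sets of values (both genes and their log2 ratio, in 4 groups), 2 were flagged. Chance flags about 1 in 20 sets of normally distributed, unrelated values. The linear triceps levels were skewed and both genes went together, so that rate does not hold here. On log2 CPM the gaps were 0.158 and 0.368 of the range, and 0 of 8 sets of log2 levels passed the limit, so the flags hold for the linear scale. Both flags came from the same library. Its log2 ratio of Myh7 to Atp2a2 was not flagged. Its part in the results was measured by leaving the animal out, and the log2 difference between the muscles at 22 months was then 4.57 for Myh7 and 2.89 for Atp2a2.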

How the results depend on the processing

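Over 30 results and 112 alternatives, apart from leaving out animals, 91 kept both direction and side of the threshold. The age differences in gastrocnemius turned positive with library totals alone (Myh7 0.061, Atp2a2 0.044), with limma-voom (0.21, 0.051) and as mean log2 CPM (0.20, 0.038), all far from the threshold. Between the muscles at 22 months, Myh7 passed its threshold with library totals alone (3.42), the DESeq2 Wald test (3.23), limma-voom (5.72), the mean log2 CPM (5.75) and, at its unchanged 3.23, an adjusted p under 0.05. Pairing by the animal as a block gave 5.83, which is given in the report with the 20-month values, and changed no other call. The mean log2 CPM, held to an unadjusted 0.01, also put Myh7 past it at 20 months (4.99), and Atp2a2 at 1.99 passed 0.05 but not 0.01 (exact p = 0.0215). On linear CPM, the age difference in the spread of Myh7 in triceps was 22.0 points, the muscle differences in the spread of Atp2a2 were -83.8 and -58.3 points and passed 0.05, and r between the muscles at 22 months was -0.216 for Myh7 and -0.166 for Atp2a2. With medians, the age difference of the log2 ratio in triceps was 0.65, and the muscle differences of 3.02 and 2.60 no longer passed. The cause of these shifts was not tested.

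Leaving out each animal in turn moved the log2 differences with age from -0.21 to 0.15 (Myh7) and from -0.21 to 0.020 (Atp2a2) in gastrocnemius, and from -2.98 to -1.02 and -1.81 to -0.71 in triceps. Between the muscles they ran from 1.31 to 2.29 and 0.91 to 1.66 at 20 months, and from 2.96 to 4.57 and 2.12 to 2.89 at 22 months. The difference of age effects ran from 0.95 to 2.98 and from 0.63 to 1.78. The spread by age ran from -0.68 to -0.29 (Myh7) and -0.40 to -0.19 (Atp2a2) in gastrocnemius, and from -1.33 to -0.62 and -1.12 to -0.50 in triceps. The spread by muscle ran from -3.05 to -2.59 (Myh7, 20 months), -2.79 to -1.97 (Myh7, 22 months), -0.88 to -0.45 (Atp2a2, 20 months) and -0.40 to 0.12 (Atp2a2, 22 months, positive only without replicate 10). The correlation between the muscles ran from 0.0264 to 0.575 and -0.192 to 0.266 for Myh7, and from -0.0652 to 0.575 and -0.175 to 0.360 for Atp2a2, at 20 and 22 months. The log2 ratio by age ran from 0.07 to 0.25 in gastrocnemius and -0.53 to 0.40 in triceps, and by muscle from 2.47 to 3.43 and 2.79 to 3.58. The correlation of Myh7 with Atp2a2 stayed between 0.905 and 0.993 over the 4 groups.

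With 10 animals a group, the 95% interval of the age difference of Myh7 in triceps ran from -4.50 to 1.05. The least Myh7 counts of a library were 19, in 2 triceps libraries.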
